A study of Mus musculus with 8 samples.

Results

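*Phox2a*, *Hand1*, *Hand2*, *Gata2*, *Gata3*, *Insm1*, *Tfap2b*, and *Sox11* encode transcription factors of early sympathetic neuron development. They were chosen by name, with earlier results of these data known. All 8 were present in the RNA-seq table of sympathetic ganglia at embryonic day 11.5 (E11.5), which held 13506 genes. They were also in the table at E14.5, which held 13413 genes. At E11.5, *Isl1* CKO embryos, *Wnt1-Cre;Isl1* f/f and labelled Isl1-/-, were compared with control embryos, *Wnt1-Cre;Isl1*+/+ and labelled wild type. *Wnt1-Cre* drives recombination in the neural crest, both E11.5 groups carried it together with a *Rosa26-tdTomato* reporter, and tissue without fluorescence was cleaned from the ganglia. At E14.5, *Isl1* hypomorphic embryos, *Isl1* f-neo/f-neo and labelled as an *Isl1* mutation, were compared with wildtype embryos, for which the methods name no *Cre* and an ordinary dissecting microscope. Each genotype had 2 libraries, each from the pooled ganglia of about 10 or more embryos, so that 8 libraries in 4 groups were measured. The deposited values are FPKM, sequenced fragments scaled to transcript length and to the size of the library, with 1 value per gene and genotype in which both libraries are combined. No value of a single library and no read number was given, so depth is unknown, and the p-values that the authors deposited were not used, so no difference below has a replicate check, an error, or a test.

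Sympathetic neurons arise from trunk neural crest cells that aggregate near the dorsal aorta, where BMP signals switch on a set of regulators, among them *Phox2a*, *Hand2*, *Gata2*, *Gata3*, and *Insm1*. These factors act as a network, in which each depends on several others, and they keep neuroblasts dividing, install the noradrenaline pathway, and promote neuronal differentiation. ISL1 is a LIM-homeodomain factor of the same neurons, and LIM-homeodomain and paired-like homeodomain proteins recognise sites with a TAAT core.

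The ganglia held the defining transcripts of sympathetic neurons in all 4 columns, with *Dbh*, which makes noradrenaline from dopamine, between 543 and 608 FPKM and *Th*, the rate-limiting enzyme of catecholamine synthesis, between 145 and 280 FPKM. *Stmn2*, a neuronal microtubule regulator, lay between 433 and 1182 FPKM. *Isl1* itself was at 132.6 FPKM in control and 40.0 FPKM in CKO ganglia at E11.5, and at 162 FPKM in wildtype and 83.1 FPKM in hypomorphic ganglia at E14.5. These values count the whole gene, so they do not separate transcripts with and without the deleted part. Glial and crest transcripts were present in every column too, with *Sox10*, the crest and glial regulator, at 29.3 FPKM in E11.5 control and 59.3 FPKM in CKO ganglia.

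The genes lie on 7 chromosomes of the mm9 assembly, the build named in the methods, as annotated by GENCODE. *Phox2a* (ENSMUSG00000007946.8) spans chr7:108966827-108971680 on the plus strand, and the end of *Inppl1* on the minus strand overlaps it. *Hand1* (ENSMUSG00000037335.7) spans chr11:57642207-57646320 on the minus strand and *Hand2* (ENSMUSG00000038193.3) chr8:59799780-59803314 on the plus strand. *Gata2* (ENSMUSG00000015053.8) spans chr6:88143885-88157024 on the plus strand and *Gata3* (ENSMUSG00000015619.9) chr2:9778705-9811661 on the minus strand. *Insm1* (ENSMUSG00000068154.4) spans chr2:146047657-146050752 and *Tfap2b* (ENSMUSG00000025927.6, annotated there as Tcfap2b) chr1:19198995-19228815, both on the plus strand. *Sox11* (ENSMUSG00000063632.5) spans chr12:28025562-28027574 on the minus strand. *Gata3* also overlaps 4930412O13Rik and *Gm13256* on the opposite strand and 9230102O04Rik on its own, and whether the counting used strand is not given in the sources used here.

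RefSeq promoter sequences on GRCm38.p6, cut here to the 250 bases before the transcription start, were held for 6 of the 8 genes at 7 start sites. Those of *Tfap2b* and *Gata2* are shown because these genes had the lowest CKO to control ratios of the 8 at E11.5, and that of *Phox2a* because it alone of the 8 was past 1.5-fold at E14.5. Capitals mark each TAAT read on either strand, with overlapping matches counted separately. All are on the plus strand, at chr1:19211804-19212053 for *Tfap2b*, at chr6:88193641-88193890 and chr6:88198414-88198663 for the 2 starts of *Gata2*, and at chr7:101818063-101818312 for *Phox2a*.
Tfap2b: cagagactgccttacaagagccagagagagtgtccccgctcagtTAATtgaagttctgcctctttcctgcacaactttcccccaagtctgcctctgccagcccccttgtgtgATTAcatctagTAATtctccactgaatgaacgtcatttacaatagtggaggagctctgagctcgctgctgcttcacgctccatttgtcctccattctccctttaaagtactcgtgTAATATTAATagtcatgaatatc
Gata2, first start: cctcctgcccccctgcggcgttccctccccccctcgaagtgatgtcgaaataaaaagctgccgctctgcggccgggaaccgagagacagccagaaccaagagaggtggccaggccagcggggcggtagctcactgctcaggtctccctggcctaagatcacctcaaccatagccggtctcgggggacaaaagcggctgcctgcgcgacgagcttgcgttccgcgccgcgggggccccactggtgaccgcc
Gata2, second start: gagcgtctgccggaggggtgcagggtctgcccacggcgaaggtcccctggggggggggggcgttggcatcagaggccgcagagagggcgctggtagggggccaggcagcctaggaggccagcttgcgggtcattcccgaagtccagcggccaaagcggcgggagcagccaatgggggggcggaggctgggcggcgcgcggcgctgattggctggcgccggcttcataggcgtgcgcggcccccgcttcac
Phox2a: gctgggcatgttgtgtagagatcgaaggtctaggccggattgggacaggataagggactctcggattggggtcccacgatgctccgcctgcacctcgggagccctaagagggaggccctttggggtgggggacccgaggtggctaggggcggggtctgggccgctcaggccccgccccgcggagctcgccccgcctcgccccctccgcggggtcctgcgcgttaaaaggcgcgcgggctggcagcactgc

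The *Tfap2b* promoter held 6 TAAT matches, and 3.26% of the 32851 mouse promoters in the table held as many or more. Neither *Gata2* start nor the *Phox2a* promoter held a match, and 54.9% of all promoters held at least 1. The *Hand2* promoter (chr8:57320733-57320982, plus strand) held 5 matches, the *Sox11* promoter (chr12:27342719-27342968, minus strand) held 1, and the *Gata3* promoter (chr2:9878601-9878850, minus strand) held 0. GATA motifs (spelled AGATAA or AGATAG, and likewise the form TGATAA and its partner TGATAG, on either strand) were matched 2 times in *Hand2*, 2 times in *Sox11*, and not in the other 5 windows, against 26.5% of all promoters with at least 1. E-boxes (CANNTG), the kind of site that HAND proteins bind with E proteins, were matched 2 times in *Hand2*, 2 times in *Sox11*, and 1 time in *Tfap2b*, against 66.2% of all promoters with at least 1. The windows differed in base composition, from 46.4% G and C in *Tfap2b* to 74.0% at the second *Gata2* start, around a median of 52.4% over all promoters. A match is a description of letters and not of binding, and no match says only that these letters are not in this window.

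FPKM is scaled to gene length, so the levels of the 8 genes can be set in order within a column. In E11.5 control ganglia *Hand2* was highest at 298 FPKM, followed by *Hand1* at 224 FPKM and *Phox2a* at 223 FPKM. *Gata3* at 79.1, *Insm1* at 70.9, *Tfap2b* at 70.0, *Sox11* at 54.6, and *Gata2* at 42.8 FPKM made up the lower group. The step from *Phox2a* to *Gata3* was 2.82-fold, and no other step was over 1.33-fold, so most neighbours in this order were close, and their spread over libraries is not known. *Hand2* had 212 genes of the table above it and *Gata2* had 2016. In E14.5 wildtype ganglia the order opened with *Phox2a* at 553 and *Hand2* at 474 FPKM, and *Gata2* stood 1 place behind *Hand1* instead of last. *Phox2a* then had 65 genes above it among 13413.

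**Figure D1:**
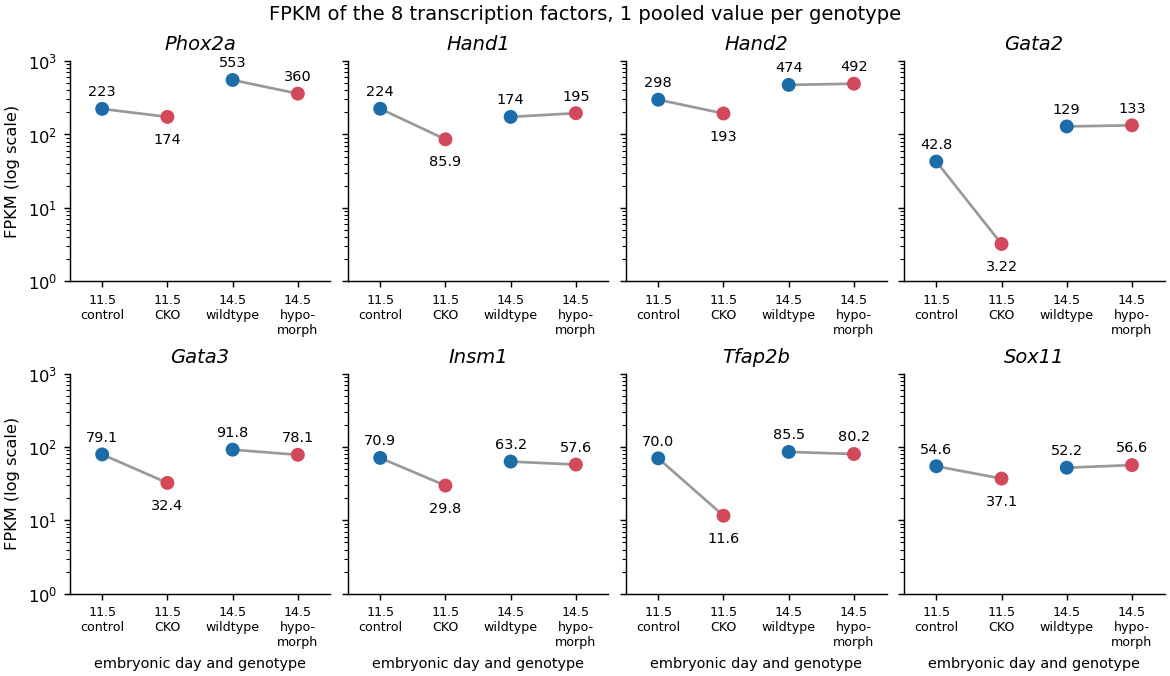
FPKM (log axis) of each transcription factor in the 4 genotype columns, blue for control or wildtype and red for mutant, each point 1 pooled value of 2 libraries with no error available. At E11.5 all 8 red points lie below their blue points, from 298 to 193 FPKM for *Hand2* and from 42.8 to 3.22 FPKM for *Gata2*, and at E14.5 the pairs lie close together except for *Phox2a*.

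To ask how the loss of *Isl1* relates to these factors at the early stage, CKO and control columns were compared at E11.5. All 8 were lower in CKO ganglia, and 6 of 8 were lower by at least 1.5-fold, the fold threshold the methods used, where 12.9% of all 13506 genes were lower and 18.9% were higher by that much. None of the 8 was higher. Because the 8 were chosen with earlier results of these data known, their count beside the share of all genes is a description only. Of all genes past 1.5-fold 59.4% were higher. This share was 35.2% after rescaling to equal column sums without erythroid genes and 91.3% relative to the pan-neuronal median, so it depended on the scaling. The median of the 8 log2 ratios, computed from FPKM plus a pseudocount of 0.1, was -1.27, against 0.05 over all genes. Summed over the 8 genes, 1063 FPKM in control ganglia stood against 567 FPKM in CKO ganglia. In whole ganglia, fewer cells that express a gene and less RNA of it per cell cannot be told apart.

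*Gata2*, a zinc-finger factor needed for sympathetic neuron differentiation and better known from blood stem cells, had the lowest ratio of the 8. It was at 42.8 FPKM in control and 3.22 FPKM in CKO ganglia, 13.3-fold lower, with a log2 ratio of -3.69. Of the 4418 genes with at least 20 FPKM in control ganglia, 62 had a lower ratio. Its place in the column went from the 85.1 to the 19.2 percentile. *Gata3*, its close relative, without which noradrenaline synthesis fails in the mouse embryo, was at 79.1 FPKM in control and 32.4 FPKM in CKO ganglia, with a log2 ratio of -1.29. The annotated transcripts that overlap *Gata3* were lower as well, with 4930412O13Rik at 6.68 and 1.98 FPKM and 9230102O04Rik at 3.32 and 1.34 FPKM. If strand was not used, overlapping reads of 4930412O13Rik and of *Gata3* could not be told apart. Strand would not separate those of 9230102O04Rik, which lies on the same strand as *Gata3*. The part of both transcripts in the *Gata3* value was not tested.

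*Tfap2b*, an AP-2 factor of sympathetic progenitors and of noradrenergic differentiation, was second lowest. It was at 70.0 FPKM in control and 11.6 FPKM in CKO ganglia, 6.06-fold lower, with a log2 ratio of -2.59, and 72 of the 4418 abundant genes had a lower ratio. *Hand1*, a basic helix-loop-helix (bHLH) factor, was at 224 and 85.9 FPKM, with a log2 ratio of -1.38. *Insm1*, a zinc-finger factor that promotes division of sympathetic precursors and catecholamine enzymes, was at 70.9 and 29.8 FPKM, with a log2 ratio of -1.25. *Gata3*, *Hand1*, and *Insm1* thus kept between 38.3% and 42.0% of their control FPKM, as against 7.53% for *Gata2* and 16.5% for *Tfap2b*.

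*Hand2*, the bHLH factor required for noradrenergic differentiation and for division of sympathetic neuroblasts, was at 298 FPKM in control and 193 FPKM in CKO ganglia. Its log2 ratio of -0.62, 1.54-fold lower, was just past the threshold. *Sox11*, a high-mobility-group factor that promotes neuroblast division early in these ganglia, was just short of it, at 54.6 and 37.1 FPKM with a log2 ratio of -0.56. *Phox2a*, the paired-like homeodomain factor that acts on the *Dbh* promoter, had the ratio nearest to 0, at 223 and 174 FPKM with a log2 ratio of -0.36. Among the 4418 abundant genes, 1029 had a lower ratio than *Phox2a* and 544 had a lower ratio than *Hand2*. *Phox2a* thus stood at the 23.3 percentile and *Hand2* at the 12.3 percentile of these ratios.

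**Figure D2:**
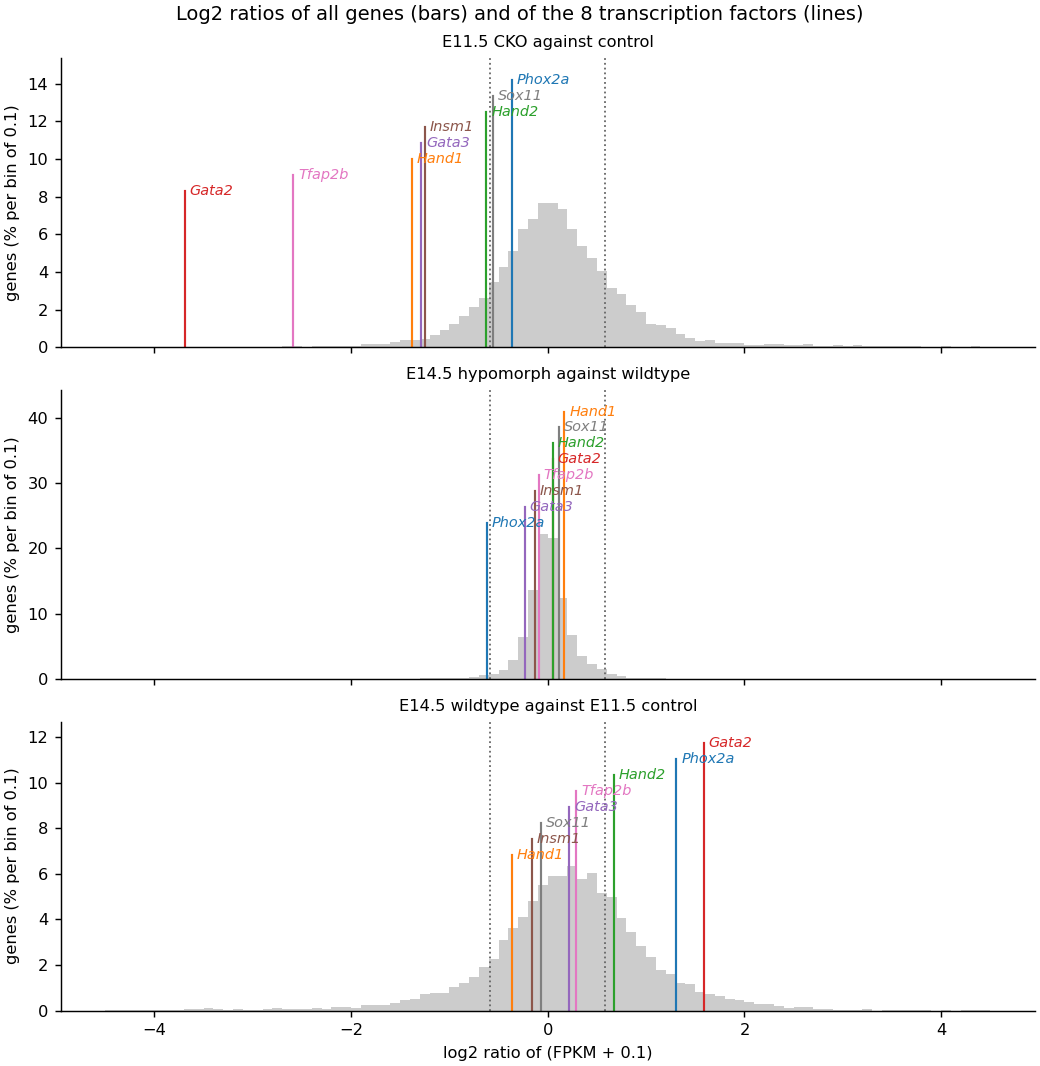
Log2 ratio of FPKM plus 0.1 (x axis) of all genes as the percentage of genes per bin of 0.1 (grey bars), with each of the 8 genes as a coloured line whose height only separates the labels, and dotted lines at 1.5-fold. In the upper panel *Gata2* at -3.69 and *Tfap2b* at -2.59 stand in the sparse left tail, in the middle panel 7 of 8 lie between the dotted lines, and in the lower panel *Gata2*, *Phox2a*, and *Hand2* lie right of the upper line. Genes beyond 4.5 on either side, 176, 69, and 112 from top to bottom, are not drawn.

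The E11.5 columns also differed in marker genes of other cell types and in cell-cycle genes. All 14 neural crest and glial genes had higher FPKM in CKO ganglia, 12 of them past 1.5-fold, with a sum of 364 FPKM in control and 776 FPKM in CKO ganglia and none at 0, and the 2 most abundant were *Fabp7* (90.9 and 208 FPKM) and *Ednrb* (89.98 and 200.3 FPKM). Erythroid genes made up 2.29% of all FPKM in control and 11.2% in CKO ganglia, with 11 of the 12 listed past 1.5-fold higher and with *Hba-x* at 2572 and 53627 FPKM, while *Hbb-y* was listed at 7552 FPKM in control and at 0 in CKO ganglia, which may be a failed estimate. Without *Hbb-y* the erythroid share was 0.712% in control and 11.2% in CKO ganglia. Mesenchymal genes were higher in 11 of 11 (6 past 1.5-fold, sums of 601 and 1042 FPKM) and endothelial genes in 10 of 10 (1 past 1.5-fold, sums of 86.8 and 113 FPKM). Heart muscle genes were past 1.5-fold higher in 6 of 7. Of 14 trophoblast and decidua genes 3 were in the table, all 3 past 1.5-fold higher and led by *Prl8a2* at 0.24 and 48.4 FPKM. Of 10 mesonephros and gonad genes, 4 were in the table and 2 were past 1.5-fold higher, *Krt8* and *Krt18*. *Wt1* and *Osr1* were not, with log2 ratios of 0.56 and 0.42. Of 18 S and G2/M phase genes all were lower in CKO ganglia and 12 past 1.5-fold, with sums of 1936 and 1120 FPKM. Whether these differences reflect cell numbers or RNA per cell, and their part in the values of the 8 transcription factors, was not tested. *Gata1*, the erythroid member of the GATA family, was at 0.92 and 9.68 FPKM, *Gata4* at 0.42 and 5.67 FPKM, and *Gata6* at 2.19 and 6.76 FPKM, so that the GATA genes of other tissues were higher in the column in which *Gata2* and *Gata3* were lower.

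Neuronal reference genes gave a second scale for the same values. Of 20 pan-neuronal genes, 17 were lower in CKO ganglia and 9 past 1.5-fold, with a median log2 ratio of -0.47, and *Uchl1* was at 594 and 426 FPKM and *Nefl* at 1008 and 507 FPKM. Relative to the median of this list, 5 of 8 genes were still past 1.5-fold lower, where 4.28% of all genes were lower and 45.1% higher. Their log2 ratios were -3.22 for *Gata2*, -2.12 for *Tfap2b*, -0.91 for *Hand1*, -0.82 for *Gata3*, and -0.78 for *Insm1*. *Hand2* at -0.15, *Sox11* at -0.09, and *Phox2a* at 0.11 lay close to 0 on this scale. The list itself ran from -1.87 for *Elavl3* to 0.53 for *Prph*, so a value relative to its median depends on the genes chosen.

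**Figure D3:**
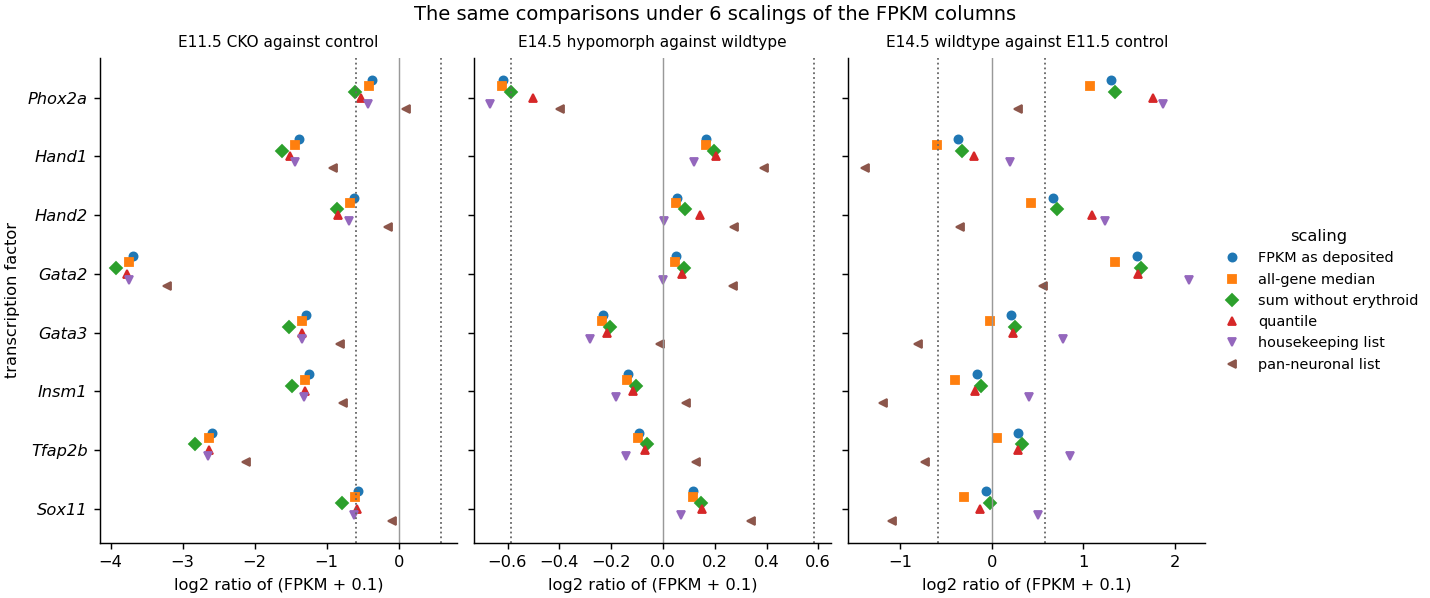
Log2 ratio of each gene (rows) in the 3 comparisons (panels, with different x ranges) under 6 scalings of the FPKM columns (symbols), with dotted lines at 1.5-fold. At E11.5 *Gata2*, *Tfap2b*, *Hand1*, *Gata3*, and *Insm1* stay left of the lower line under every scaling drawn, whereas *Phox2a*, *Hand2*, and *Sox11* lie between -0.15 and 0.11 when the pan-neuronal list is the reference.

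The other transcription factors of the lineage were spread more widely than the 8. Of 18 such genes, 17 were in the E11.5 table, and 11 were lower and 3 higher past 1.5-fold, with a median log2 ratio of -0.96. *Isl1* itself is in this list, and without it 10 of 16 were lower, with a median of -0.92. *Insm2*, the close relative of *Insm1*, was at 33.2 FPKM in control and 1.96 FPKM in CKO ganglia, with a log2 ratio of -4.02, and *Lmo1*, a LIM-only cofactor linked to neuroblastoma, was at 43.2 and 4.23 FPKM. *Prox1* was at 32.6 and 6.60 FPKM, *Tlx3* at 49.5 and 16.9 FPKM, *Satb1* at 24.4 and 8.74 FPKM, and *Eya1* at 109 and 54.6 FPKM. *Lmo4*, at 74.2 and 155 FPKM, and *Cited2*, a coactivator of AP-2 proteins, at 20.3 and 37.4 FPKM, were higher.

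A further list held relatives and partners of the 8, among them 4 genes of the list above, *Insm2*, *Sox4*, *Tfap2a*, and *Cited2*. Of 23 family members and protein partners, 19 were in the E11.5 table, 3 were lower and 6 higher past 1.5-fold, and their median log2 ratio was 0.0032. The 3 lower were *Insm2*, *Sox4*, and *Zfpm2*, and the higher ones included *Gata1*, *Gata4*, and *Gata6*. The E proteins *Tcf3*, *Tcf4*, and *Tcf12*, with which HAND proteins pair, had log2 ratios of -0.05, -0.14, and -0.20. *Kdm1a*, *Hdac2*, and *Rcor1*, which encode the chromatin complex that INSM1 recruits, had log2 ratios of -0.16, 0.01, and -0.04. *Zfpm1* and *Zfpm2*, the FOG cofactors of GATA proteins, had log2 ratios of 0.16 and -0.85. *Kctd1* and *Kctd15*, inhibitors of AP-2 activity, had log2 ratios of 0.00 and -0.53. *Gata5*, *Tfap2c*, *Tfap2d*, and *Tfap2e* were in neither table.

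Among 11 noradrenergic enzymes and transporters, 3 were lower and 0 higher past 1.5-fold at E11.5, with a median log2 ratio of -0.15. The 3 were *Gch1*, which makes the cofactor of TH (46.6 and 13.2 FPKM), *Slc6a2*, the noradrenaline transporter (61.4 and 18.9 FPKM), and *Maoa*, which degrades noradrenaline (147 and 68.3 FPKM). *Dbh* was at 543 and 594 FPKM, *Th* at 184 and 145 FPKM, and *Ddc* at 195 and 172 FPKM. Of 8 chromaffin genes 2 were lower and 2 higher past 1.5-fold, with *Cartpt* at 638 and 881 FPKM and *Npy* at 123 and 81.6 FPKM.

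Ratios between relatives within a column do not depend on a constant factor applied to that column, and 5 such pairs were followed. *Gata2* stood to *Gata3* as 0.54 in E11.5 control and as 0.0996 in CKO ganglia, a shift of -2.44 on the log2 scale. *Hand1* to *Hand2* went from 0.75 to 0.44 and *Tfap2b* to *Tfap2a* from 22.7 to 2.38, whereas *Insm1* to *Insm2* went from 2.14 to 15.2. *Tfap2a*, the AP-2 gene of the early crest, was itself at 3.09 and 4.86 FPKM. *Sox11* to *Sox4*, at 0.40 and 0.45, shifted by less than 1.5-fold. In 3 of the 4 pairs that shifted, the gene with fewer FPKM in control ganglia was the one with the lower CKO to control ratio, as for *Gata2*, *Hand1*, and *Insm2*. *Tfap2b* was the exception.

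**Figure D4:**
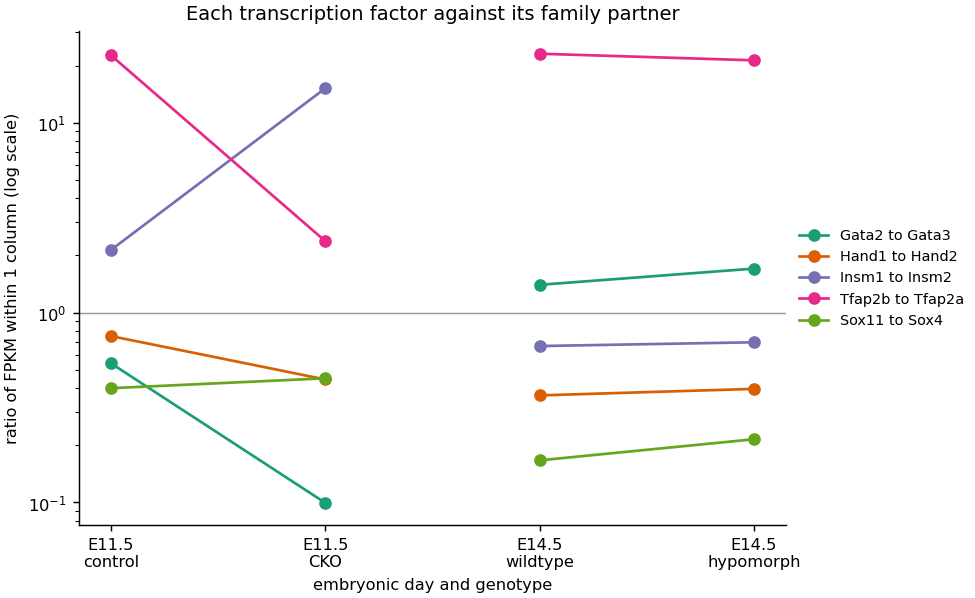
Ratio of FPKM of each gene to its family partner within 1 column (log axis) across the 4 genotype columns, with lines joining the groups of a stage. At E11.5 *Gata2* to *Gata3* drops to 0.0996 and *Tfap2b* to *Tfap2a* to 2.38 while *Insm1* to *Insm2* climbs to 15.2, and at E14.5 all 5 lines are nearly level.

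At E14.5, *Isl1* was at 51.3% of its wildtype FPKM in hypomorphic ganglia, beside 30.2% of its control FPKM in E11.5 CKO ganglia. The hypomorphic ganglia were compared with wildtype ganglia. 1 of 8 genes, *Phox2a*, was lower by at least 1.5-fold, where 2.12% of all 13413 genes were lower and 2.89% were higher by that much. None of the 8 was higher past 1.5-fold. Of all genes past 1.5-fold 57.7% were higher, or 43.1% after quantile normalization and 86.7% relative to the pan-neuronal median. The median log2 ratio of the 8 was -0.02, against 0.00 over all genes, with 4 values below and 4 above 0. Their sum was 1621 FPKM in wildtype and 1452 FPKM in hypomorphic ganglia.

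*Phox2a* was at 553 FPKM in wildtype and 360 FPKM in hypomorphic ganglia, 1.53-fold lower, with a log2 ratio of -0.62. Of the 4891 genes with at least 20 FPKM in wildtype ganglia, 87 had a lower ratio. It was no longer past the threshold relative to the pan-neuronal median, at -0.40, or after quantile normalization, at -0.50. *Inppl1*, whose end overlaps *Phox2a* on the other strand, was at 22.4 and 22.6 FPKM.

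The other 7 genes differed little between the E14.5 columns. *Gata2*, at 129 and 133 FPKM, had a log2 ratio of 0.05, and *Tfap2b*, at 85.5 and 80.2 FPKM, had a log2 ratio of -0.09. *Hand2*, at 474 and 492 FPKM, and *Hand1*, at 174 and 195 FPKM, had log2 ratios of 0.05 and 0.17. *Gata3*, at 91.8 and 78.1 FPKM, had a log2 ratio of -0.23, the second lowest of the 8. *Insm1*, at 63.2 and 57.6 FPKM, and *Sox11*, at 52.2 and 56.6 FPKM, had log2 ratios of -0.13 and 0.12. Without single libraries it cannot be said how far such small ratios lie within the spread between libraries.

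Around them, 7 of 18 other sympathetic transcription factors were lower and 2 higher past 1.5-fold, with a median log2 ratio of -0.21, and without *Isl1*, which is in the list, 6 of 17 were lower. *Hmx1*, a noradrenergic identity factor, was at 366 FPKM in wildtype and 108 FPKM in hypomorphic ganglia, *Tbx20* at 24.6 and 7.20 FPKM, *Casz1* at 23.8 and 10.8 FPKM, *Lmo1* at 65.6 and 30.9 FPKM, and *Etv5* at 7.17 and 4.63 FPKM. *Tlx3*, a cholinergic identity factor, was at 32.8 and 72.3 FPKM and *Prox1* at 24.8 and 37.7 FPKM. *Rorb*, listed at E14.5 only, was at 1.64 and 0.58 FPKM. The family members and partners had 1 lower and 1 higher of 19 past 1.5-fold, and the noradrenergic genes 0 lower and 1 higher of 11, *Slc18a1*, a vesicular monoamine transporter, at 18.2 and 44.4 FPKM. Among the marker lists, neural crest and glial genes had sums of 569 and 626 FPKM (0 of 14 past 1.5-fold), endothelial genes 119 and 165 FPKM (1 of 10, all 10 higher), mesenchymal genes 1423 and 1588 FPKM (0 of 10, all 10 higher), and S and G2/M phase genes 697 and 1007 FPKM (2 of 18, all 18 higher). The median log2 ratio of the pan-neuronal list was -0.22, and erythroid genes made up 1.26% and 1.55% of all FPKM. The part of these in the values of the 8 was not tested.

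**Figure D5:**
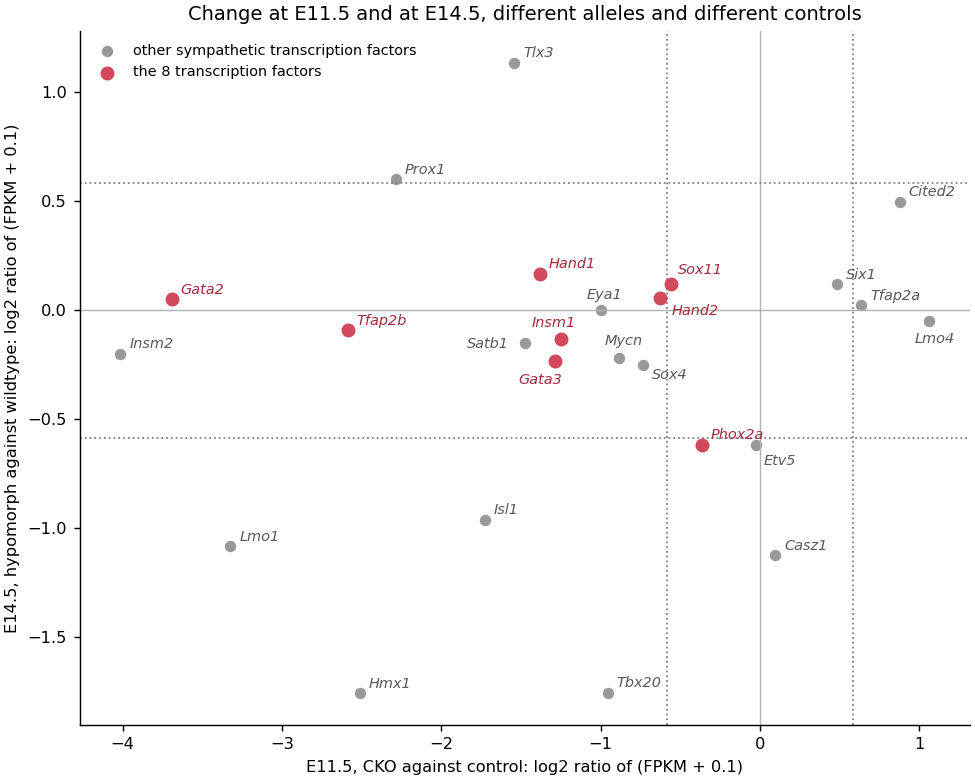
Log2 ratio of FPKM plus 0.1 at E11.5 (x axis, CKO against control) and at E14.5 (y axis, hypomorph against wildtype) for the 8 transcription factors (red) and for other sympathetic transcription factors in both tables (grey), with dotted lines at 1.5-fold. Of the 8, *Phox2a* at -0.36 and -0.62 is the only red point below the lower dotted line, and *Gata2* at -3.69 and 0.05 lies far to the left at a height near 0.

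The difference between the 2 comparisons was widest for *Gata2*, by 3.74 on the log2 scale, and for *Tfap2b*, by 2.49, followed by *Hand1* at 1.55, *Insm1* at 1.12, and *Gata3* at 1.05. *Phox2a* was alone among the 8 in having the lower ratio at E14.5, by -0.25. The stages differ also in the allele, in how much *Isl1* transcript was left, in *Wnt1-Cre* and the reporter, and in the dissection, and these cannot be told apart. These differences were not tested.

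The columns of the 2 groups with intact *Isl1*, E11.5 control and E14.5 wildtype, were set side by side. They come from 2 tables that the authors normalized separately, so levels across them rest on FPKM alone. The groups differ in stage and also in *Wnt1-Cre*, the reporter, and the dissection, and these cannot be told apart. Of the 8 genes, 3 were higher and 0 lower at E14.5 by at least 1.5-fold, where 29.7% of the 12646 genes in both tables that reached an FPKM of 1 were higher and 12.8% lower by that much. Of all genes past 1.5-fold 69.9% were higher, or 49.6% after centring on the median, 54.2% after quantile normalization, 6.94% relative to the pan-neuronal median, and 91.8% relative to the housekeeping median, so the direction of most genes turned with the scaling. The median log2 ratio of the 8 was 0.25, against 0.24 over all genes.

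*Gata2* had the steepest difference, 42.8 FPKM at E11.5 and 129 FPKM at E14.5, with a log2 ratio of 1.59, and 86 of the 4329 genes with at least 20 FPKM at E11.5 had a higher ratio. *Phox2a*, at 223 and 553 FPKM, had a log2 ratio of 1.31, and *Hand2*, at 298 and 474 FPKM, a log2 ratio of 0.67. The other 5 were within 1.5-fold, with *Tfap2b* at 0.29, *Gata3* at 0.21, *Sox11* at -0.07, *Insm1* at -0.17, and *Hand1* at -0.37. Within a column, the ratio of *Gata2* to *Gata3* was 0.54 at E11.5 and 1.40 at E14.5, and that of *Hand1* to *Hand2* was 0.75 and 0.37. *Insm1* to *Insm2* was 2.14 and 0.67, and *Sox11* to *Sox4* was 0.40 and 0.17. In these 4 of the 5 families the ratio differed between the stages by over 1.5-fold, which a constant factor applied to a column does not change. These ratios were not recomputed after quantile normalization.

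Other lists moved between these columns as well. Pan-neuronal genes were higher at E14.5 in 19 of 20 (16 past 1.5-fold, median log2 ratio 1.02), noradrenergic genes were higher past 1.5-fold in 7 of 11, and S and G2/M phase genes were lower past 1.5-fold in 17 of 18. Relative to the pan-neuronal median, 5 of the 8 were past 1.5-fold lower at E14.5 and none higher. On that scale 62.1% of all genes were lower and 4.63% higher, so the count of lower genes was near the share of all genes. *Gata2* was at 0.56 and *Phox2a* at 0.28 on the log2 scale. Relative to the housekeeping median, 5 of the 8 were higher, where 63.1% of all genes were higher and 5.65% lower. But 4 of 8 housekeeping genes in both tables were themselves past 1.5-fold lower at E14.5, with *Actb* at 1919 and 1120 FPKM and *Rpl13a* at 585 and 170 FPKM. *Gata2* and *Phox2a* were higher at E14.5 under all of the scalings drawn, and the directions of the other 6 depended on the scaling. *Hmx1*, at 4.88 FPKM at E11.5 and 366 FPKM at E14.5, and *Casz1*, at 4.10 and 23.8 FPKM, had the widest differences among the other sympathetic transcription factors.

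Profiles over the 4 columns were then compared with those of 10499 other genes by the Euclidean distance of centred log2 values. *Gata2* had 1 gene within a distance of 0.5, *Insm2* at 0.29, and its next neighbours were *Gda* at 0.51 and *Egln3* at 0.59. *Tfap2b* had 5 genes within that distance, led by *Lmo3* at 0.13, *Ccnd1* at 0.27, and *Pclo* at 0.27. *Lmo3* was at 4.79, 0.745, 6.41, and 5.31 FPKM, and *Ccnd1*, which encodes cyclin D1, was at 831, 123, 782, and 809 FPKM, in the order E11.5 control, CKO, E14.5 wildtype, and hypomorph. The other 6 had many close genes, from 216 for *Hand1* to 2742 for *Sox11*. The 3 closest were *Stat2*, *Pag1*, and *Smpd3* for *Phox2a*, 5830418K08Rik, *Sass6*, and *Ptbp2* for *Hand1*, and *Hmbox1*, *Mtrf1l*, and *Brsk2* for *Hand2*. They were *Nek1*, *Itpripl2*, and *Zfc3h1* for *Gata3*, *Rian*, *Ptbp2*, and *Rfx3* for *Insm1*, and *Cstf2*, *Luc7l2*, and *Rsf1* for *Sox11*. With 4 columns that share libraries across genes, these distances are descriptions.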

How the data were processed

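RNA-seq of sympathetic ganglia was available as 2 tables, 1 per stage. According to the methods, the authors isolated polyA RNA, prepared SMARTer libraries, aligned paired-end reads to mm9 with TopHat, and estimated FPKM with cuffdiff. The submitters' processing notes name TopHat 1.3.1, Cuffdiff 1.3.0, and another organism's build, dm3, which was not resolved here. The FPKM values were deposited by the authors as 1 pooled column per genotype, and no gene was under an FPKM of 1 in both columns of its table. Depth per library is unknown. The authors' columns of log2 fold changes and p-values were not used.

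Here log2 ratios of FPKM + 0.1 were computed for genes that reached an FPKM of 1 in at least 1 column, and a 1.5-fold difference was counted, with no test. Across stages, symbols in both tables were used once, without spreadsheet dates. The 8 genes, the 14 other lists, and the naming rule were chosen with earlier results of these data known. Named were the 8, *Isl1*, genes of the lists of transcription factors, partners, and noradrenergic genes, at most the 2 most abundant genes of other lists, their defining genes at 0, and the 3 genes closest in profile among genes that reached an FPKM of 5. *Stmn2*, *Sox10*, *Krt8*, *Krt18*, and genes that overlap the 8 were named for the checks they belong to. Some genes of these lists are not reported here. Alternatives covered pseudocount, filter, scaling, and fold. Steps were tested on simulated data with Python 3.11.15, numpy 2.4.6, pandas 2.3.3, and matplotlib 3.10.9.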

Additional observations from a re-analysis of the deposited data

How the results depend on the processing

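No paired analysis was possible because the deposited columns pool both libraries of a genotype, and leaving out a replicate was not run for the same reason. The 3 comparisons of the 8 genes were recomputed under 11 alternatives. At E11.5 the count of 6 lower genes ran from 5 to 8 over these, and 8 is the most it can be. It was 5 when centred on pan-neuronal genes (4.28% of all genes lower) and at 2-fold (4.83%). It was 8 when rescaled without erythroid genes (22.5%) and at 1.2-fold (27.5%). The filter settings left the values of the 8 unchanged. At E14.5 the count of 1 lower gene became 0 when centred on pan-neuronal genes, under quantile normalization, and at 2-fold. Between the control and wildtype groups, the count of 0 lower genes became 1 when centred on all genes and at 1.2-fold. It became 5 when centred on pan-neuronal genes (0 higher, median -0.77, *Hand2* at -0.35), and 5 genes were higher when centred on housekeeping genes. *Hand2* was no longer counted as higher when centred on all genes, at 0.43, or at 2-fold. Of all genes, 62.1% were lower on the pan-neuronal scale and 63.1% higher on the housekeeping scale. Of 39 ratios of single genes or pairs, 8 moved by over 1.5-fold under at least 1 setting, and *Hand2* alone changed sign after being past it. These were the ratios of all 8 genes between the control and wildtype groups, which moved together when centred on pan-neuronal genes. Ratios of pairs were recomputed with other pseudocounts only, so they had little room to move. Rescaling without erythroid genes shifted the median of all genes at E11.5 from 0.05 to -0.18, and the share of higher genes among those past 1.5-fold from 59.4% to 35.2%. This rescaling sets both columns to the same sum over the remaining genes. As deposited, all genes summed to 476289 FPKM in control and 617263 FPKM in CKO ganglia. The shift thus reflects unequal column sums and is not a measure of the erythroid share. Pooled FPKM give no depth, so small differences cannot be resolved.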
